A study of Mus musculus with 8 samples.

Results

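Cystatins and stefins, the endogenous protein inhibitors of cysteine cathepsins, were followed in belly skin of hurpin-transgenic mice through 6 genes: Cst3, Cst6, Cstb, Stfa1, Stfa2 and Stfa3. They were read through the probe sets annotated to exactly 1 of these symbols, which were 5 of the 45037 probe sets that are not array controls. Cstb had 2 such probe sets, and Cst3, Cst6 and Stfa3 had 1 each. Stfa1 was represented only by a probe set annotated to both Stfa1 and Cstdc5, and Stfa2 by no annotated probe set, so 4 of the 6 genes could be read alone. All 5 probe sets passed the filter on low signal that left 27022 probe sets for testing. Total RNA of skin from 8-month-old mice had been hybridised to oligonucleotide arrays, with 4 transgenic animals (females 7 and 84, males 11 and 17) and 3 wildtype animals (males 26 and 28, female 29). Wildtype 29 was measured on 2 arrays and counted once, so 8 arrays stood for 7 animals. Hurpin is the product of human SERPINB13, an intracellular serpin known as an inhibitor of cathepsin L. The strain, the species and promoter of the transgene and the number of founder lines are not given in the sources used here. No probe set was annotated to Serpinb13, so the transgene itself could not be checked on the arrays. In whole skin a lower signal can come from fewer cells of a type or from less RNA per cell, which cannot be told apart here.

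Cystatins bind the active-site cleft of papain-like cysteine proteases tightly and reversibly, and thereby hold in check cathepsins that leak from lysosomes or are secreted. The stefins (type 1 cystatins: Cstb and the stefin A genes) are small proteins without a signal peptide that act in the cytosol and nucleus, whereas the type 2 cystatins (Cst3 and Cst6) are secreted and held together by disulfide bonds. In skin, cystatin M/E, the product of Cst6, restrains cathepsin L and the asparaginyl protease legumain in the cornifying epidermis and the hair follicle, and mice that lack it have a defect of cornification. Cathepsin L is thus a target that cystatins share with hurpin.

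The stefin A genes form a tandem cluster on chromosome 16 of the mouse. From Csta1 to Stfa3 the RefSeq annotation of GRCm38.p6 lists 12 protein-coding genes in a row, of which 3 (Csta1, Stfa2l1 and Stfa3) had a probe set of their own on the array. A further 4 (Csta2, Cstdc4, Cstdc5 and Stfa1) had only a probe set shared with another member of the cluster, and the other 5 had none. The promoters of the 3 stefin A genes under study are shown to let the likeness of the gene copies be seen, since the signals of Stfa3 and of the probe set shared by Stfa1 and Cstdc5 followed each other across the animals. Each window runs from 250 bases before to 50 bases after the annotated start (RefSeq, GRCm38.p6), and capitals mark runs of at least 10 bases found unbroken in all 3.
Stfa1 (chr16:36276898-36277197, + strand): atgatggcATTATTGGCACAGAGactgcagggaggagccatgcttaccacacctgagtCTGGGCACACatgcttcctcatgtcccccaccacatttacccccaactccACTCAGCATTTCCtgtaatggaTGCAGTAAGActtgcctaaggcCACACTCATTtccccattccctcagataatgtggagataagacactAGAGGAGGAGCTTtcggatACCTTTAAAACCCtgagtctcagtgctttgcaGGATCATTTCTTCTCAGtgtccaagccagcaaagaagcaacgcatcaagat
Stfa2 (chr16:36408314-36408613, - strand): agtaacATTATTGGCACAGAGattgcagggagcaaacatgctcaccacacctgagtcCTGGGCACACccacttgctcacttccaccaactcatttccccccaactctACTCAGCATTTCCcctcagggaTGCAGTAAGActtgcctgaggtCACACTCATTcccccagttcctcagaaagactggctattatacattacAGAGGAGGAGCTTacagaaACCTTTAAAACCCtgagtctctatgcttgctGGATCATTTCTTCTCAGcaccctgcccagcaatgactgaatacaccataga
Stfa3 (chr16:36455343-36455642, - strand): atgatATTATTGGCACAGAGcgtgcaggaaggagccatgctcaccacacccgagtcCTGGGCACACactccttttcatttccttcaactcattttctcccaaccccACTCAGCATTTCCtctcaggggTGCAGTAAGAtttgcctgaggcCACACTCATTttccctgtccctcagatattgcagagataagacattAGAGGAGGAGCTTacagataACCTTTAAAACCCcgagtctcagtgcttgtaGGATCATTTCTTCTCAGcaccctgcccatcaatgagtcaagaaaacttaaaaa
The shared runs covered 101 of 300 bases in each window. In global alignments Stfa1 and Stfa3 were identical in 80.6% of 304 aligned columns, Stfa2 and Stfa3 in 80.9% of 303, and Stfa1 and Stfa2 in 78.9% of 304. Stfa3 matched Csta1, the first gene of the cluster, in 44.1% of columns, and Cst3 of chromosome 2 in 40.2%. The likeness was not limited to these 3 genes: Stfa2l1 of the same cluster matched Stfa2 in 90.5%, Stfa3 in 81.0% and Stfa1 in 78.8% of columns. The motif TTTAAA, which is its own reverse complement, lies in one of the shared runs and begins 30, 29 and 31 bases before the start of Stfa1, Stfa2 and Stfa3. It was present in 13.2% of all 32851 promoter windows of the same length. The motif CCAAT, searched on both strands and not overlapping the first, was found in all 3 windows and in 37.4% of all windows. These motifs were looked for after the sequences had been seen. Whether the probes of Stfa3 also read other copies of the cluster was not tested, and the signal called Stfa3 below is uncertain in that sense.

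Arrays differed in target quality. Gapdh, an array control for intact target, had a 3'/5' signal ratio of 13.8 in transgenic female 7, 1.45 in male 11, 4.68 in male 17 and 17.2 in female 84, against 1.03 to 1.15 in wildtype animals (exact permutation test of the log2 ratio, 2-sided p = 0.0571, and no split of 4 and 3 animals gives a smaller one). Every transgenic ratio lay above every wildtype ratio. Estimates below with this ratio as a covariate therefore cannot separate group from target quality. Hair keratin signal differed too, with a mean log2 signal of 15 hair shaft and matrix genes of 9.94 in transgenic 17 and 12.80 to 13.53 in the other transgenic animals, against 7.24 in wildtype 26 and 13.86 and 13.93 in the other wildtype animals. Defining keratinocyte genes were strongly expressed in both groups: Krt14, a basal keratin, read 14.09 to 14.34 in transgenic and 14.10 to 14.32 in wildtype skin. The total of all intensities of an array was 34785081 to 37857733, and precision was limited by how few arrays there were. Nothing in the labels gives the litter or cage of the animals.

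None of the 5 cystatin and stefin probe sets passed the test between the groups. Values were compared as log2 of signal intensity plus 21.8 with limma, with Benjamini-Hochberg adjustment over all 27022 probe sets and an adjusted p under 0.05 as the threshold. Of the 5, 0 passed, against 0.0148% of all probe sets tested. At an unadjusted p under 0.05, where 11.7% of all probe sets lay, 0 of the 5 were found. The ranges of the groups overlapped in each of the 5, whereas they did not overlap in 11.3% of all probe sets. The 95% confidence intervals below give the sizes of change that these 7 animals leave possible, and every difference is the transgenic minus the wildtype mean of log2 values.

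**Figure D1:**
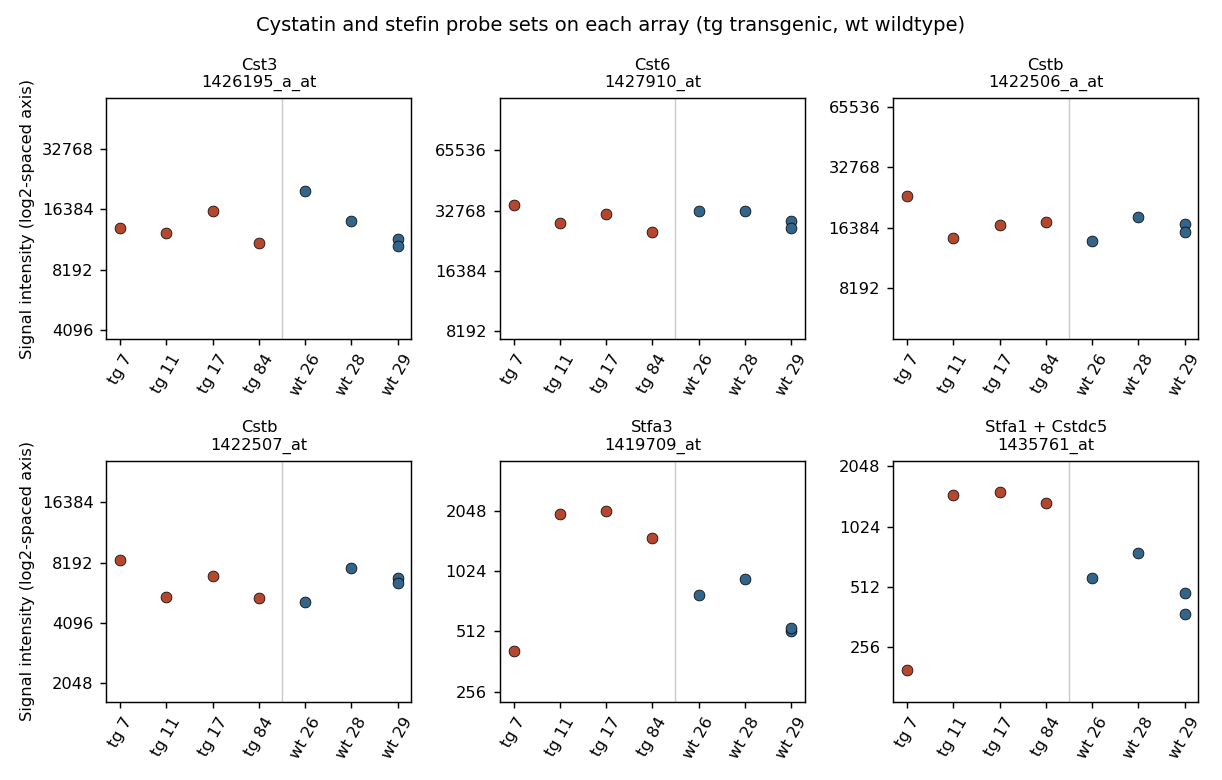
Signal intensity (log2-spaced axis) of the 5 member probe sets and of the probe set shared by Stfa1 and Cstdc5 in 4 transgenic (tg) and 3 wildtype (wt) mice; each point is 1 array, and wt 29 has 2. The vertical axes all span the same fold range, and only the 2 stefin A probe sets spread widely, with tg 11, 17 and 84 above and tg 7 below the wildtype animals.

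Cst6, the secreted cystatin M/E of the cornifying epidermis, was the steadiest of the members. Its signal intensity was 34769 in transgenic female 7, 28534 in male 11, 31480.1 in male 17 and 25692 in female 84, against 32725 in wildtype 26, 32528 in wildtype 28, and 29098 and 26847 on the arrays of wildtype 29. Transgenic animals held both the highest and the lowest value, and the other 2 lay inside the wildtype range. On the log2 scale Cst6 averaged 14.87 ± 0.19 in transgenic skin (SD, n = 4) and 14.92 ± 0.13 in wildtype skin (SD, n = 3). The difference of -0.05 had a 95% interval from -0.35 to 0.25 (limma adjusted p = 0.908), which corresponds to a ratio of 0.966 with an interval from 0.786 to 1.19. The duplicate arrays of wildtype 29 differed by 0.12 in log2, close to the SD of 0.13 between wildtype animals. Cst6 read 53.1% to 73.8% of the highest intensity of its array in transgenic and 64.0% to 71.4% in wildtype animals, and whether the scanner compressed signals of that strength was not tested. Wildtype 26, with the least hair keratin, and wildtype 28, with much of it, read 14.999 and 14.990 in Cst6.

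Cst3, the ubiquitous secreted cystatin C, varied mainly among the wildtype animals. Its signal intensity was 13278 in transgenic female 7, 12485 in male 11, 16116 in male 17 and 11095 in female 84, against 20275 in wildtype 26, 14295 in wildtype 28, and 11632 and 10699.7 on the arrays of wildtype 29. Wildtype 26 stood highest and transgenic 17 next, and these are the animals with the lowest hair keratin signal in their groups. Cst3 averaged 13.68 ± 0.22 in the transgenic group (SD, n = 4) and 13.85 ± 0.43 in the wildtype group (SD, n = 3), a difference of -0.17 with a 95% confidence interval from -0.65 to 0.30 (limma adjusted p = 0.774). Without wildtype 26 the difference was 0.055, with the sign turned (limma adjusted p = 0.905, and 0.580 to 0.99999 over all 22 alternatives). With hair keratin as a covariate it was -0.093, and -0.079 with the ratio of Gapdh.

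The order of animals seen in Cst3 recurred in other genes of the same samples. Wildtype 26 and transgenic 17 were also the 2 highest animals in Csta1, Cst7 and Rarres1, 3 of the 6 other cystatin-related genes tested, and in 5 of 11 target proteases, but in 1 of 12 cornification genes, against 11.8% of all tested probe sets. Among the marker lists it held for 7 of 10 macrophage and dendritic cell, 3 of 7 mast cell, 3 of 10 skeletal muscle, 2 of 6 suprabasal keratinocyte, 2 of 6 fibroblast and 1 of 4 sebocyte genes. It held for 1 of 6 basal keratinocyte, 1 of 7 neutrophil, 0 of 15 hair and 0 of 5 adipocyte genes. Cystatin C is made in most cells and strongly in macrophages. The summed intensity of the 10 macrophage markers, none of which was at 0, ranged from 39668 to 54949 in transgenic and from 27515 to 63118 in wildtype animals. The part that macrophages or follicles had in the Cst3 values was not tested, and this order was picked out after its values were seen.

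Cstb, the cytosolic stefin B, was read by a pair of probe sets that ordered the animals alike at both ends. The first, whose probes match several transcripts of the gene (suffix _a_at), gave intensities of 23461 in transgenic female 7, 14519 in male 11, 16810.2 in male 17 and 17411 in female 84, against 14082 in wildtype 26, 18395 in wildtype 28, and 17039 and 15512 on the arrays of wildtype 29. Transgenic 7 was the highest and wildtype 26 the lowest, and the other 3 transgenic animals lay inside the wildtype range. Its log2 mean was 14.12 ± 0.29 in transgenic (SD, n = 4) and 13.98 ± 0.19 in wildtype skin (SD, n = 3), a difference of 0.14 with a 95% confidence interval from -0.26 to 0.53 (limma adjusted p = 0.783). The second (suffix _at) gave 8452 in transgenic female 7, 5544 in male 11, 7000.5 in male 17 and 5448 in female 84, against 5191 in wildtype 26, 7733 in wildtype 28, and 6885 and 6508.5 on the arrays of wildtype 29. Transgenic 7 was again the highest and wildtype 26 the lowest. Here the log2 difference of 0.01 had an interval from -0.44 to 0.46 (adjusted p = 0.990). The probe sets disagreed most for transgenic 84, which had a log2 value minus the mean of all animals of 0.03 in the first and -0.25 in the second. The difference of the first probe set was 0.0043 without transgenic 7, and -0.18 when the ratio of Gapdh was a covariate. Ctsl, the cathepsin that stefin B and hurpin can both inhibit, also stood highest in transgenic 7 (14.51) and next in wildtype 28 (14.34). Its lowest animal was transgenic 11 (13.89), not wildtype 26. Transgenic 7 was the highest animal in Cst6 (15.09) and in the most abundant probe set of the cathepsin gene Ctsb (14.62) too. This likeness was picked out after the values were seen, and its share among all probe sets was not counted.

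Stfa3, a stefin A gene of the chromosome 16 cluster, had the widest range of the members and split the transgenic animals. Its signal intensity was 407 in transgenic female 7, 1969 in male 11, 2035 in male 17 and 1492 in female 84, against 776 in wildtype 26, 935 in wildtype 28, and 515 and 534 on the arrays of wildtype 29. The transgenic animals 11, 17 and 84 lay above all 3 wildtype animals, and transgenic 7 lay below all 3. On the log2 scale Stfa3 averaged 10.32 ± 1.07 in transgenic (SD, n = 4) and 9.55 ± 0.41 in wildtype skin (SD, n = 3). The difference of 0.77 had a 95% confidence interval from -0.40 to 1.95 (limma adjusted p = 0.580), a ratio of 1.71 with an interval from 0.757 to 3.86. The duplicate arrays of wildtype 29 differed by only 0.05 in log2, below the median of 0.19 over all tested probe sets and below the SD of 0.41 between wildtype animals.

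The Stfa3 difference depended on transgenic 7. Without that animal it was 1.30 (SE 0.246), with an unadjusted p of 0.000878 and an adjusted p of 0.473 in limma. In that setting 2166 of 27022 probe sets lay at an unadjusted p under 0.05. Transgenic 7 was the only transgenic animal not above all wildtype animals. Leaving it out thus fixes that the other 3 lie above them, and it narrows the spread. That p-value describes the dependence on 1 animal and is no separate test of a difference. Over all 22 alternatives the difference stayed above 0, from 0.54 to 1.75, and the adjusted p ran from 0.359 to 0.99999. It was 1.75 when the ratio of Gapdh was a covariate (SE 0.709, against 0.517 in the main fit) and 1.44 without transgenic 7 and 84. Transgenic 7 and 84 had the highest Gapdh ratios (13.8 and 17.2) and hair keratin means of 13.53 and 13.47, and Stfa3 read 8.74 in transgenic 7 and 10.56 in transgenic 84. The part of target quality and hair content in the Stfa3 values was not tested.

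The probe set annotated to both Stfa1 and Cstdc5 followed Stfa3 closely. It gave 197 in transgenic female 7, 1477 in male 11, 1519.6 in male 17 and 1339 in female 84, against 569.5 in wildtype 26, 758 in wildtype 28, and 374 and 478 on the arrays of wildtype 29. Again transgenic 11, 17 and 84 lay above and transgenic 7 below every wildtype animal. The log2 difference of 0.63 had a 95% interval from -0.84 to 2.09 (limma adjusted p = 0.726), and 1.31 without transgenic 7 (adjusted p = 0.385, and 0.385 to 0.99999 over all 22 alternatives). After each probe set was centred on its own mean over the 7 animals, this probe set differed from Stfa3 by a root mean square of 0.24 in log2, the smallest distance of all 27021 other probe sets (median 0.87). Probe sequences were not used here, and whether both probe sets read some of the same transcripts was not tested.

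**Figure D2:**
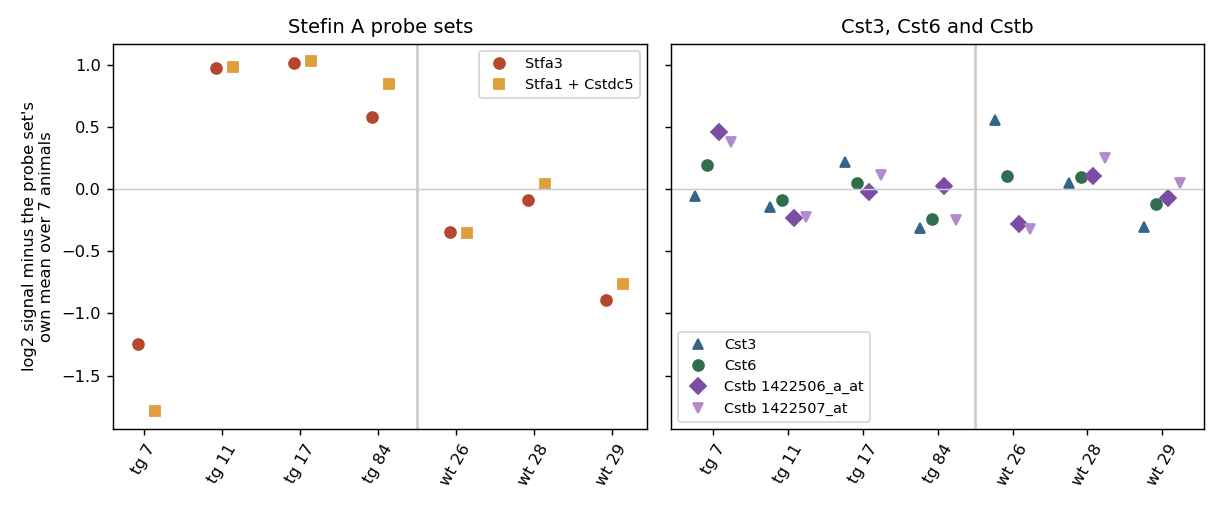
Log2 signal of each probe set minus its own mean over the 7 animals (vertical axis), by animal (tg transgenic, wt wildtype): left, Stfa3 and the probe set of Stfa1 and Cstdc5; right, Cst3, Cst6 and both probe sets of Cstb. The stefin A points run together from -1.24 and -1.79 in tg 7 to 1.02 and 1.03 in tg 17, while the right panel stays between -0.32 and 0.55.

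Among genes outside the cluster, the 5 with the most similar centred profile to Stfa3 were Btbd1, a BTB domain protein, Lcorl, a nuclear corepressor-like protein, Npr3, the clearance receptor of natriuretic peptides, Cdkl4, a kinase, and Amhr2, the receptor of anti-Müllerian hormone. Their root mean square differences from Stfa3 ran from 0.31 to 0.37 over the 7 animals, at ranks 2, 4, 6, 7 and 8. With 7 animals and 27021 candidates such closeness is a description of these arrays only. Stfa2l1, a stefin gene near the other end of the cluster, had a different order of animals. It read 6.27 in transgenic female 7, 7.50 in male 11, 6.16 in male 17 and 7.43 in female 84, against 5.60, 7.47 and 8.64 in wildtype 26, 28 and 29. Wildtype 29 was highest in Stfa2l1 and lowest of the wildtype animals in Stfa3. The Stfa2l1 values of wildtype 26 and transgenic 17 and 7 lay under 6.45, the cut set on mean signal, so the order among them is uncertain.

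Stefin A genes are known from mouse neutrophils as well as from keratinocytes, so neutrophil markers are given beside Stfa3. Of 14 listed markers 12 had a probe set and 7 passed the level filter, with none at 0. The summed intensity of the 12 ranged from 3196 to 6085 in transgenic and from 2524 to 2855 in wildtype animals. Transgenic 7, the lowest in Stfa3, had a sum of 3527, above all wildtype animals. Mpo, the myeloperoxidase of neutrophil granules, read 7.20 in transgenic female 7, 11.50 in male 11, 11.76 in male 17 and 7.43 in female 84, against 9.45, 7.86 and 6.21 in wildtype 26, 28 and 29 (difference 1.63, limma adjusted p = 0.637). In transgenic 84 Stfa3 lay above all wildtype animals and Mpo below wildtype 26 and 28. The markers did not all share the order of Mpo. In transgenic 11 and 84, Elane read 5.30 and 6.81 and Camp 4.89 and 5.63, both genes below the level filter. Ngp, another marker of the list, read higher in transgenic 11 (7.88) than in transgenic 84 (6.10), as Mpo did. The summed intensity is weighted toward the strongest gene. That gene was S100a8 in transgenic 7 and 84 and wildtype 28 and 29, and Mpo in transgenic 11 and 17 and wildtype 26. S100a8 read 9.94 to 11.03 in transgenic and 8.49 to 10.81 in wildtype animals, so the groups overlapped (limma adjusted p = 0.822). Of the 12 markers 9 had a difference above 0 and 3 below 0. Of the 7 past the filter 6 lay above and 1 below 0, and limma called 0 of them, with 0 at an unadjusted p under 0.05 (smallest adjusted p = 0.586). Of the 5 below the filter, the granule genes Elane, Ltf and Mmp8 gave 0.79, 0.70 and 0.59, whereas Camp, another granule gene, and Cxcr2, a chemokine receptor gene, gave -0.71 and -0.14. The part of neutrophils in the Stfa3 values was not tested.

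No interaction of group and sex passed the test. For Stfa3 the difference was 0.56 in females (9.65 in transgenic, n = 2, and 9.09 in wildtype, n = 1) and 1.21 in males (10.98 in transgenic and 9.77 in wildtype, n = 2 each). Both transgenic males lay above both wildtype males. The interaction, female minus male, was -0.65 (SE 0.822, limma adjusted p = 0.9998). For Cst3, Cst6 and the Cstb probe sets it ran from 0.04 to 0.38, each with an adjusted p of 0.9998, and over all probe sets limma called 0 interactions with 772 at an unadjusted p under 0.05. With 1 wildtype female, the female difference rests on that animal.

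**Figure D3:**
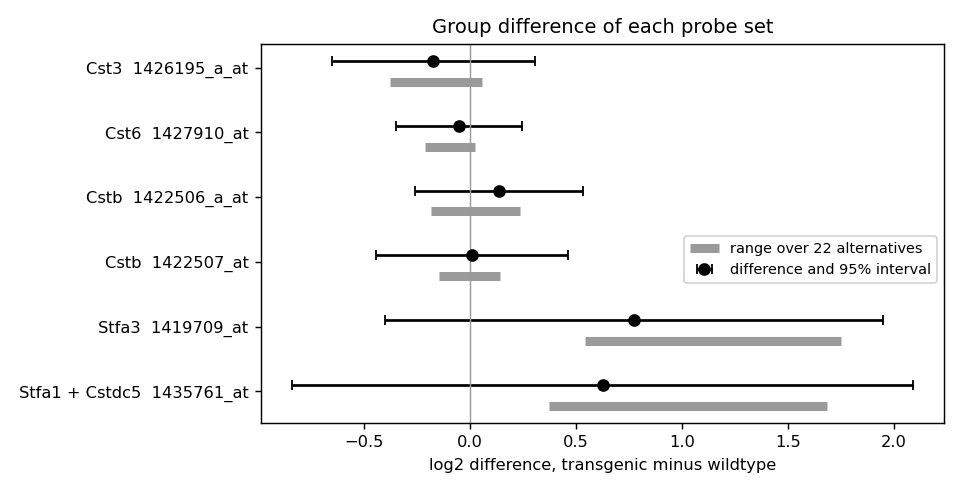
Log2 difference, transgenic minus wildtype, of each probe set: points and whiskers give the limma estimate with its 95% confidence interval over 7 animals, and grey bars the range of the estimate over 22 alternative analyses. Every interval includes 0, and only the stefin A bars stay on one side of 0.

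Other genes of the cystatin superfamily were mostly near the floor of the arrays. Of 27 listed symbols 16 had a probe set of their own and 6 passed the level filter, with 3 above and 3 below 0, a median difference of 0.09 (-0.15 without transgenic 17) and 0 calls. The median over the most abundant probe sets of all 13559 genes was 0.05. At an unadjusted p under 0.05, where 4.4% of all genes were higher and 4.6% lower, there were 0 in either direction. Lxn, latexin, a carboxypeptidase inhibitor with a cystatin-like fold, read 10.93 to 11.04 in transgenic and 10.60 to 10.86 in wildtype skin, so that the groups did not overlap (difference 0.24, adjusted p = 0.491). Fetub, fetuin B, gave 0.41 (adjusted p = 0.590) and Stfa2l1 -0.40 (0.847). Cst7, cystatin F of lymphoid and myeloid cells, averaged 7.22 ± 0.79 in transgenic animals (SD, n = 4) and 7.27 ± 0.53 in wildtype animals (SD, n = 3), a difference of -0.051 with an interval from -1.07 to 0.96. Csta1, the first stefin A gene of the cluster, averaged 12.68 ± 0.32 in transgenic and 12.76 ± 0.29 in wildtype skin (difference -0.08, adjusted p = 0.906). Csta1 was chosen after its values were seen. BC100530, another symbol of the list, had no probe set of its own and does not appear under that name among the 12 cluster genes.

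The remaining 10 genes lay below the level filter, with intensities from 1.8 to 138 over 11 probe sets. In 1 of these 11 the groups did not overlap, against 9.4% of all 45037 probe sets without the filter. This was Hrg, histidine-rich glycoprotein, a plasma protein with cystatin domains, chosen after its values were seen. It read 6.09 to 7.13 in transgenic and 5.03 to 5.42 in wildtype skin (difference 1.48, limma adjusted p = 0.305 in the fit without a filter), near the floor of 4.45 that the pseudocount sets. Cstdc2, also chosen after its values were seen, went the other way (difference -1.21, limma adjusted p = 0.458 in the same fit). It read 5.13, 7.02, 5.43 and 5.77 in transgenic 7, 11, 17 and 84, against 6.94 to 7.13 in wildtype skin, so the groups overlapped.

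Target proteases of the cystatins showed no call. Of 11 genes 4 lay above and 7 below 0, with a median difference of -0.15 (0.016 without transgenic 84) against 0.05 over all genes. Ctsl, the target shared by hurpin and the cystatins, averaged 14.16 ± 0.27 in transgenic animals (SD, n = 4) and 14.21 ± 0.17 in wildtype animals (SD, n = 3), a difference of -0.05 (limma adjusted p = 0.927). Lgmn, legumain, the other protease held by cystatin M/E, averaged 10.53 ± 0.34 in transgenic and 10.82 ± 0.27 in wildtype skin, a difference of -0.29 with an interval from -0.78 to 0.20 (limma adjusted p = 0.624). Ctss, the cathepsin of antigen-presenting cells, gave 0.40 (interval -0.30 to 1.11, adjusted p = 0.634), and Ctsh, an aminopeptidase of the family, 0.011. Ctsf, a lysosomal cathepsin, had the smallest p of the list when the most abundant probe set of each gene was read. It stood at 8.66 ± 0.51 in transgenic and 9.67 ± 0.13 in wildtype skin (difference -1.01, adjusted p = 0.301). Among those probe sets Ctsf was the 1 gene at an unadjusted p under 0.05. Of all genes 4.6% were lower and 4.4% higher at that threshold. The Ctsf difference was -0.40 when the ratio of Gapdh was a covariate. Ctsc, the activator of granule serine proteases, gave -0.26 without overlap between the groups (adjusted p = 0.478), and Ctsz -0.26 (0.596). Other probe sets of Ctsz gave -0.45, without overlap, and -0.14 (limma adjusted p = 0.363 and 0.719). Ctsb, a cathepsin that stefin B also binds, differed by 0.078 in the most abundant of its probe sets and by -0.78, without overlap, in another (adjusted p = 0.301). Its further probe sets past the filter gave 0.073 and 0.36 (limma adjusted p = 0.913 and 0.538).

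Cornification genes, listed as the branch of cystatin M/E, were mostly below 0 without passing the test. The list covers cornification broadly, and whether any of its genes followed cystatin M/E was not tested. Of 12 genes 10 were below 0 in transgenic skin, against 43.7% of all genes, with a median difference of -0.46. This count takes the most abundant probe set of each gene. Casp14, named after its values were seen, gave -0.54 there but 0.30 in a second probe set (limma adjusted p = 0.508 and 0.706). The median was -0.23 without wildtype 29 and -0.66 without wildtype 26. At an unadjusted p under 0.05 there were 4 lower and 0 higher, against 4.6% lower and 4.4% higher over all genes, and 0 passed the adjusted threshold. The 4 were Tgm1, Cdsn, Asprv1 and Ctsd, the last of which was named after its values were seen. Cdsn, the adhesive corneodesmosin between cornified cells, averaged 12.79 ± 0.45 in transgenic animals (SD, n = 4) and 13.62 ± 0.07 in wildtype animals (SD, n = 3), and the groups did not overlap (difference -0.83, limma adjusted p = 0.301). Its difference was -0.79 with the ratio of Gapdh as a covariate. Asprv1, an aspartic protease that processes profilaggrin, read 12.73 to 13.50 in transgenic and 13.56 to 13.84 in wildtype skin (difference -0.69, adjusted p = 0.315, and -0.32 with that covariate). Ctsd, the lysosomal aspartic protease cathepsin D, read 12.00 to 12.88 in transgenic and 13.00 to 13.09 in wildtype skin (difference -0.66, adjusted p = 0.353). It was lowest in transgenic 7 and 84 (12.01 and 12.00), the animals with the highest Gapdh ratios. The part of target quality in Ctsd was not tested. Tgm1, the transglutaminase that cross-links the cornified envelope, averaged 8.54 ± 0.57 in transgenic and 9.76 ± 0.55 in wildtype skin (difference -1.22, adjusted p = 0.319). When the ratio of Gapdh was a covariate it was -0.46, and the part of target quality in it was not tested further. Tgm3, a transglutaminase of epidermis and hair follicle, read 10.11 in transgenic female 7, 8.79 in male 11, 8.56 in male 17 and 10.22 in female 84, against 8.40, 10.27 and 10.46 in wildtype 26, 28 and 29. Its low values fell in transgenic 17 and wildtype 26, the animals with the least hair keratin, and in transgenic 11. The difference was -0.29 with an interval from -1.62 to 1.03 (adjusted p = 0.871), and a second probe set gave -0.85 (0.364).

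**Figure D4:**
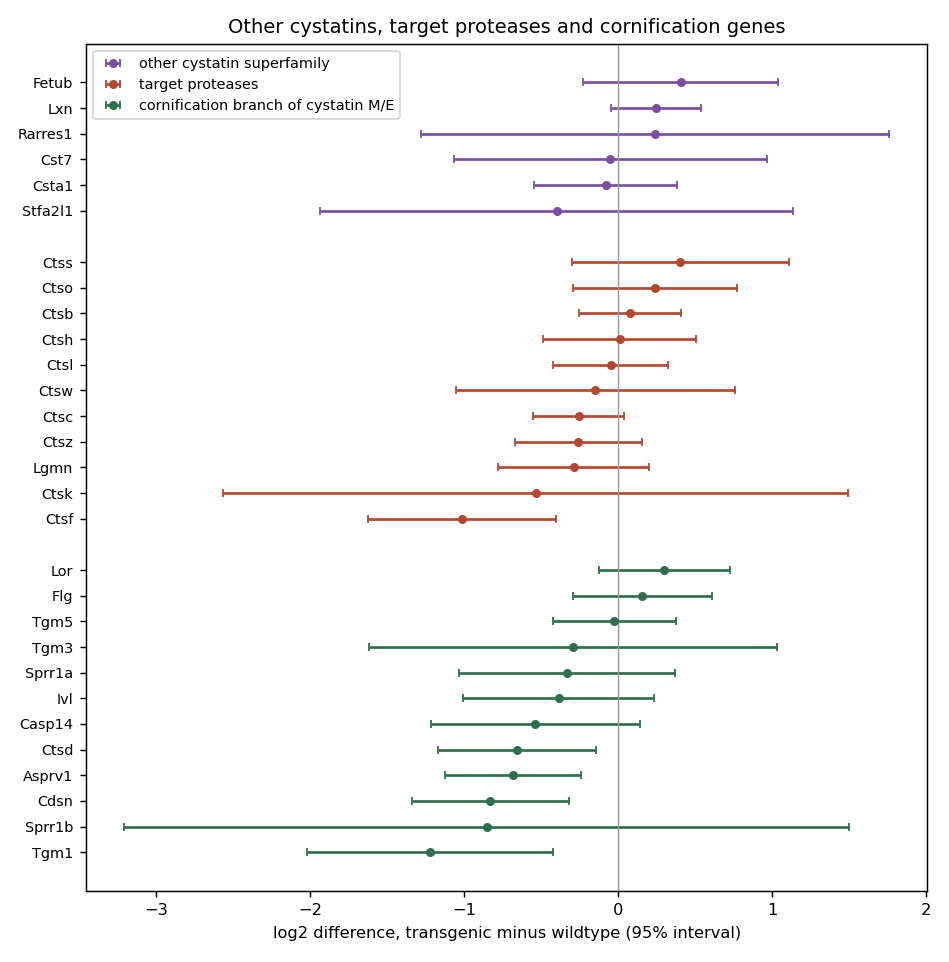
Log2 difference, transgenic minus wildtype, with its 95% confidence interval (limma, 4 against 3 animals) for the most abundant probe set of 6 other cystatin superfamily genes, 11 target proteases and 12 cornification genes. Points of the cornification genes lie below 0 for 10 of 12, and the intervals of Tgm1, Cdsn, Asprv1, Ctsd and Ctsf exclude 0 before adjustment for multiple testing.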

How the data were processed

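Signal intensity on a linear scale was deposited for 45101 probe sets on 8 arrays, made by the authors with MAS5 per the submitters' processing notes (the version is not given in the sources used here), from targets labelled with the one-cycle protocol per the labels. With 2% of the values trimmed at each end, every array had a mean of 500.003. Detection calls were not used here. GEO's platform annotation gave 1 symbol to 34945 probe sets, several to 932 and none to 9160. The 64 controls were left out.

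Values were taken as log2(intensity + 21.8), the 20th percentile of all values, and the arrays of wildtype 29 were averaged. Probe sets with a mean log2 under 6.45 (the 40th percentile) were left out. The test was limma 3.58.1 run in R 4.3.3 (group only, empirical Bayes with trend, 2-sided), tested on simulated data. Of all probe sets 4 were called. Of the pathway lists the most abundant probe set of a gene was used, and the genes named were all member probe sets, a fixed set, and the 3 smallest p of each list. Members, lists and tests were chosen with earlier results of these data known. P-values measure the spread between these animals. Sequences came from RefSeq (GRCm38.p6) and were aligned with Biopython 1.88. Alternatives covered normalization, pseudocount, filter, empirical Bayes, covariates, the arrays of wildtype 29 and each animal left out.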

Additional observations from a re-analysis of the deposited data

Results flagged for a closer look

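The probe set annotated to both Stfa1 and Cstdc5 read 7.77 in transgenic 7, far below the other 3 transgenic animals at 10.41 to 10.59. The gap was 0.936 of the range of the group, above Dixon's 95% critical value for 4 samples. For Stfa3 the same animal's gap was 0.805 of the range, under that value. Of 22 probe sets examined in the transgenic group this was the 1 that stood out, where chance gives about 1 in 20, and wildtype animals, at n = 3, were not examined.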

How the results depend on the processing

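No member passed the adjusted threshold in any of the 22 alternatives run for each of the 5 probe sets, and Stfa3 kept a difference above 0 in all of them. The sign turned for Cst3 without wildtype 26 (0.055), for Cst6 without transgenic 84 (0.023) and for the first (_a_at) Cstb probe set with a covariate for the ratio of Gapdh (-0.18) and without transgenic 7 and 84 (-0.048). With an animal left out in turn the differences ran from -0.38 to 0.055 for Cst3, from -0.12 to 0.023 for Cst6, from 0.0043 to 0.23 and from -0.15 to 0.14 for the first and the second Cstb probe set, and from 0.54 to 1.30 for Stfa3. The second Cstb probe set, at 0.01, had turned values of -0.045 under quantile normalization, -0.079 under cyclic loess, -0.0067 with sex, -0.13 with the ratio of Gapdh and -0.026 with hair keratin as a covariate, -0.0026 with the first array of wildtype 29, -0.0023 with 8 arrays as separate samples and -0.051 without transgenic 7 and 84. The cause was not tested for these turns.

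The number of probe sets called, 4, was 10 with 4 times the pseudocount, 2 with a filter at the 60th percentile, 11 with sex, 0 with the ratio of Gapdh (851 at an unadjusted p under 0.05 in limma) and 32 with hair keratin as a covariate, 9 with the second array of wildtype 29 and 28 with 8 arrays as separate samples. It ran from 0 (without wildtype 28, with 1652 at an unadjusted p under 0.05) to 280 (without transgenic 11) with an animal left out. List medians ran from -0.15 to 0.26 for other cystatins (below 0 without transgenic 17), from -0.19 to 0.016 for target proteases (above 0 without transgenic 84) and from -0.66 to -0.23 for cornification genes with an animal left out. Among named genes the sign turned for Cst7 after quantile normalization (0.029; -0.41 to 0.21 with an animal left out), Stfa2l1 (-1.21 to 0.30), Ctsb (-0.17 with the ratio of Gapdh, -0.068 with the mean over its probe sets; -0.018 to 0.17), Ctsh (-0.034 after quantile normalization; -0.19 to 0.17), Ctsl (-0.17 to 0.040), Lgmn (0.13 with the ratio of Gapdh) and Tgm3 (-0.95 to 0.081). After quantile normalization the interaction with sex turned to -0.083 for Cst6 and -0.064 for the second Cstb probe set. The causes were not tested.

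No paired analysis was possible because the groups share no replicate number. The duplicate arrays of wildtype 29 were the 1 measure of array error. Mean signals of 10 cystatin genes lay below the level filter, where differences rest on the pseudocount, and Stfa1, Stfa2 and most of the stefin A cluster were not read alone.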
